A study of Drosophila melanogaster with 6 samples.

Results

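The UDP-glycosyltransferase genes of Drosophila melanogaster were followed in whole larvae in which the nuclear receptor DHR96 had been expressed in excess. They were chosen by name, as the probe sets whose annotated symbol is Ugt followed by the numbers and letters of the family's nomenclature, or Dot. The rule found 35 genes, with 1 probe set each, of 11982 genes named on the array. No probe set carries the symbol Dot, but the reference gene table gives Dot as an older name of Ugt36A1, which is among the 35. The measured values were log2 intensities on 6 oligonucleotide arrays, 3 of control and 3 of gain larvae. Control larvae were of the w1118 strain with no transgene. Gain larvae carried, in that strain, a full-length DHR96 cDNA driven by a heat-shock promoter, which is not restricted to a tissue, in a line made by P-element transformation. Both groups were feeding larvae early in the third instar, raised on bakers' yeast. Both were heated at 37.5 °C for 1 h, beginning 3 h after the moult from the second instar, and their RNA was extracted 4 h after the heat. No larvae with the transgene and without the heat were analysed here, so the induced receptor and any standing difference of the transgenic line cannot be told apart.

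UDP-glycosyltransferases are membrane enzymes of the endoplasmic reticulum that move a sugar from a UDP-sugar onto small fat-soluble molecules. The product is more soluble in water and can be excreted. Insects mostly use UDP-glucose, whereas vertebrates mostly use UDP-glucuronic acid. The enzymes act on plant toxins, insecticides, pigments and hormones, and in insects many of their genes are transcribed in the midgut, Malpighian tubules, fat body and antennae. In the names, the number marks the family and the letter the subfamily, both assigned by protein similarity. DHR96 is a receptor known in flies for its part in the response to xenobiotics and in lipid handling.

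The label of the gain group was checked on Hr96, the gene for DHR96. Its log2 intensity was 9.47, 9.82 and 9.50 in controls 1 to 3 and 14.73, 14.71 and 14.64 in gain 1 to 3. The arrays differed in ways the groups do not explain. Controls 1 and 2 were the most alike of all pairs, with an SD of 0.20 for their log2 difference over tested genes, against 0.31 to 0.48 for other pairs within a group. On gain 2 the median of all tests lay 0.29 below the other gain arrays on the log2 scale, and on gain 3 it lay 0.18 above. Across the tested genes the median difference, gain minus control, was -0.15, so a small negative difference is what most tested genes showed. This holds for genes that passed the filter: with no filter the median of 17104 tests was 0.03. Nothing in the labels says that the arrays of a group came from separate cultures, and p-values then measure only the spread between these samples.

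Of the 35 genes, 20 were at or above a log2 intensity of 4, the floor of the filter, on all 6 arrays, and Ugt37E1 was so on 5. These 21 were tested. The other 14 did not pass the filter, which asked for 3 arrays at or above the floor, and have no test. Of those, 11 lay below the floor on every array, with highest log2 values from 1.90 to 3.90: Ugt35D1, Ugt35E1, Ugt35E2, Ugt36E1, Ugt36F1, Ugt37A1, Ugt49B2, Ugt50B3, Ugt302E1, Ugt302K1 and Ugt307A1. The remaining 3 reached the floor on a single array. Ugt35B1, first described as a gene of the antenna, lay at 3.78, 3.62 and 5.004 in control and 3.81, 3.83 and 3.80 in gain, so only control 3 stood above background. Ugt36D1 reached 4.03 on control 2, and Ugt303B2 reached 4.05 on gain 3. The 5 chemosensory marker genes, Orco, Ir25a, Or42a, Or42b and Gr66a, lay between 1.94 and 2.99 on all arrays, below the floor of 4. The probe sets of Ugt36E1, Ugt37D1 and Ugt50B3 are of a kind that can read more than 1 transcript, and those of close relatives can share signal.

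**Figure D1:**
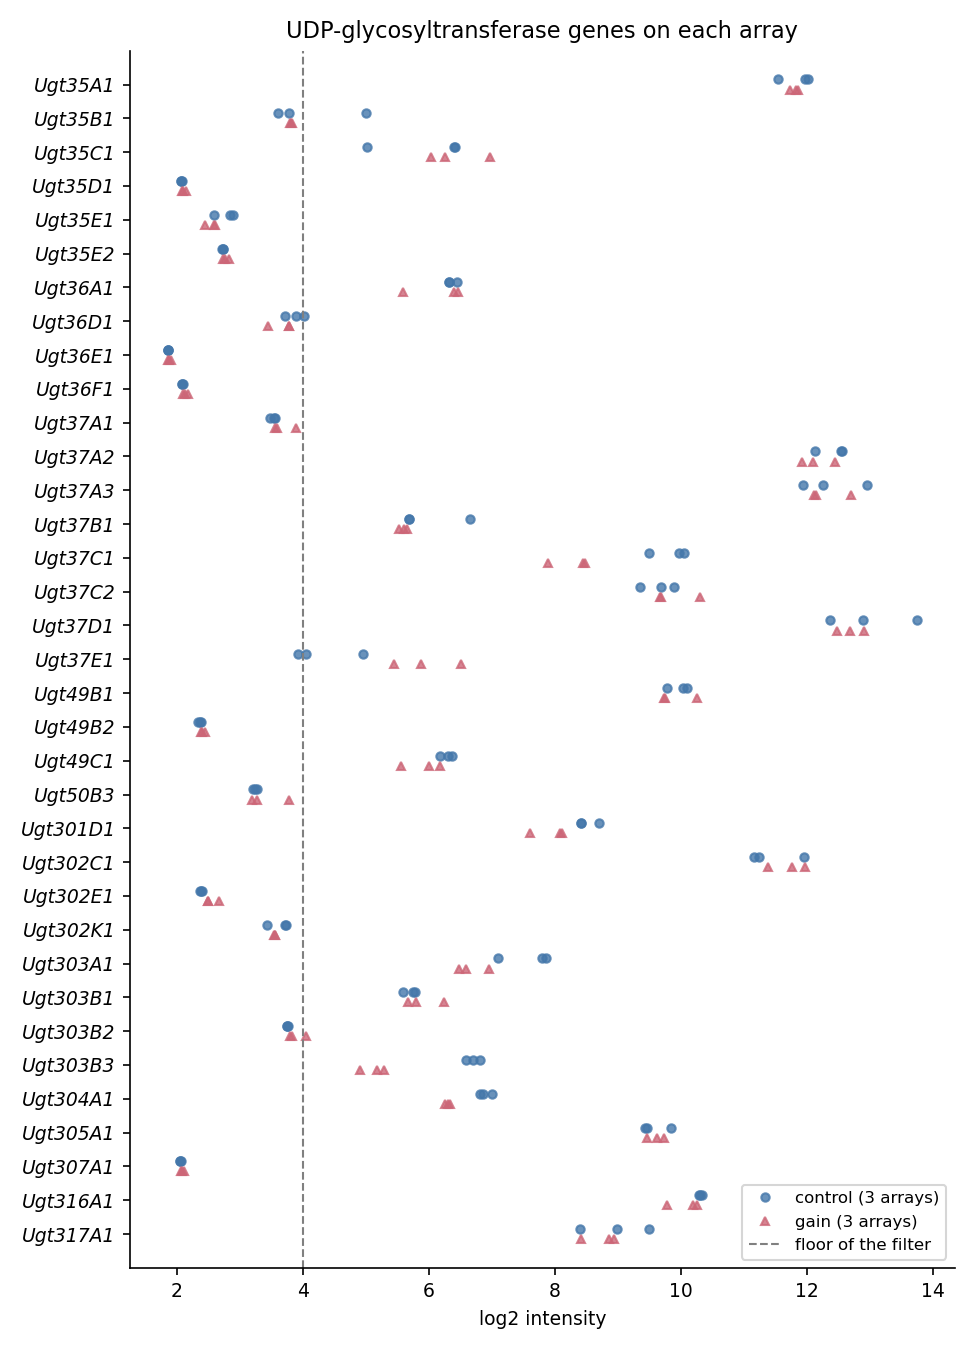
Log2 intensity (horizontal axis) of each of the 35 genes (vertical axis) on the 3 control arrays (circles) and 3 gain arrays (triangles), with the floor of 4 as a dashed line. Levels of different genes are not comparable, since each probe set has its own response, and the picture shows which genes are above the floor and where the groups separate.

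In gain larvae 3 of the 21 tested genes were lower, Ugt303B3, Ugt37C1 and Ugt304A1, none was higher, and 18 did not pass (limma, adjusted p under 0.05 over 7974 tests). Over all tests 3.47% were called lower and 0.451% higher. At an unadjusted p under 0.05, 5 members were lower and 1 was higher, beside 18.5% and 2.62% of all tests. The median difference of the 21 genes was -0.22, beside -0.15 for all tests. Of the 21 differences 15 were below 0, and over all tests 75% were. Every gain array lay below every control array for 8 members, beside 25.2% of all tests, and above for 1, beside 5.49%.

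Ugt303B3 had a log2 intensity of 6.70, 6.81 and 6.60 in controls 1 to 3 and of 5.29, 5.18 and 4.91 in gain 1 to 3. The groups lay far apart, with 1.31 between the lowest control and the highest gain array. The log2 difference was -1.58 ± 0.13 (SE, n = 3 per group, limma adjusted p = 0.0045), which leaves 33.6% of the control intensity. By p it ranked 21 of the 7974 tests. The gene stayed below an adjusted p of 0.05 under each of the 19 other settings run, with each array left out in turn among them, where the difference ran from -1.67 to -1.24.

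Control larvae gave Ugt37C1 values of 10.06, 9.97 and 9.50, and gain larvae 8.49, 7.89 and 8.45. The groups did not overlap, with control 3 the lowest control and gain 2 the lowest of all. The log2 difference was -1.57 ± 0.22 (SE, n = 3 per group, limma adjusted p = 0.0174), or 33.7% of the control intensity. The call ended without control 1 (adjusted p = 0.093) and without control 2 (adjusted p = 0.0815), with those 2 arrays averaged (adjusted p = 0.0858) and with no filter (adjusted p = 0.0767), over a range of 0.00834 to 0.093 in all 19 settings, while the difference lay between -1.74 and -1.32.

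The log2 intensity of Ugt304A1 was 6.82, 7.001 and 6.86 in controls 1 to 3 and 6.31, 6.26 and 6.35 in gain. The arrays of each group were tight and the groups did not overlap. The difference was smaller, -0.59 ± 0.10 (SE, n = 3 per group, limma adjusted p = 0.0326), or 66.5% of the control intensity. The call held in 7 of 19 other settings. Among those that ended it were leaving out any 1 of the 6 arrays (adjusted p from 0.0501 to 0.146), averaging controls 1 and 2 (adjusted p = 0.137) and each of 4 other scalings of the arrays (adjusted p from 0.0618 to 0.146), where the difference ran from -0.68 to -0.32. Whole larvae were used, and fewer cells of a type and less RNA per cell cannot be told apart for this or any other member.

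**Figure D2:**
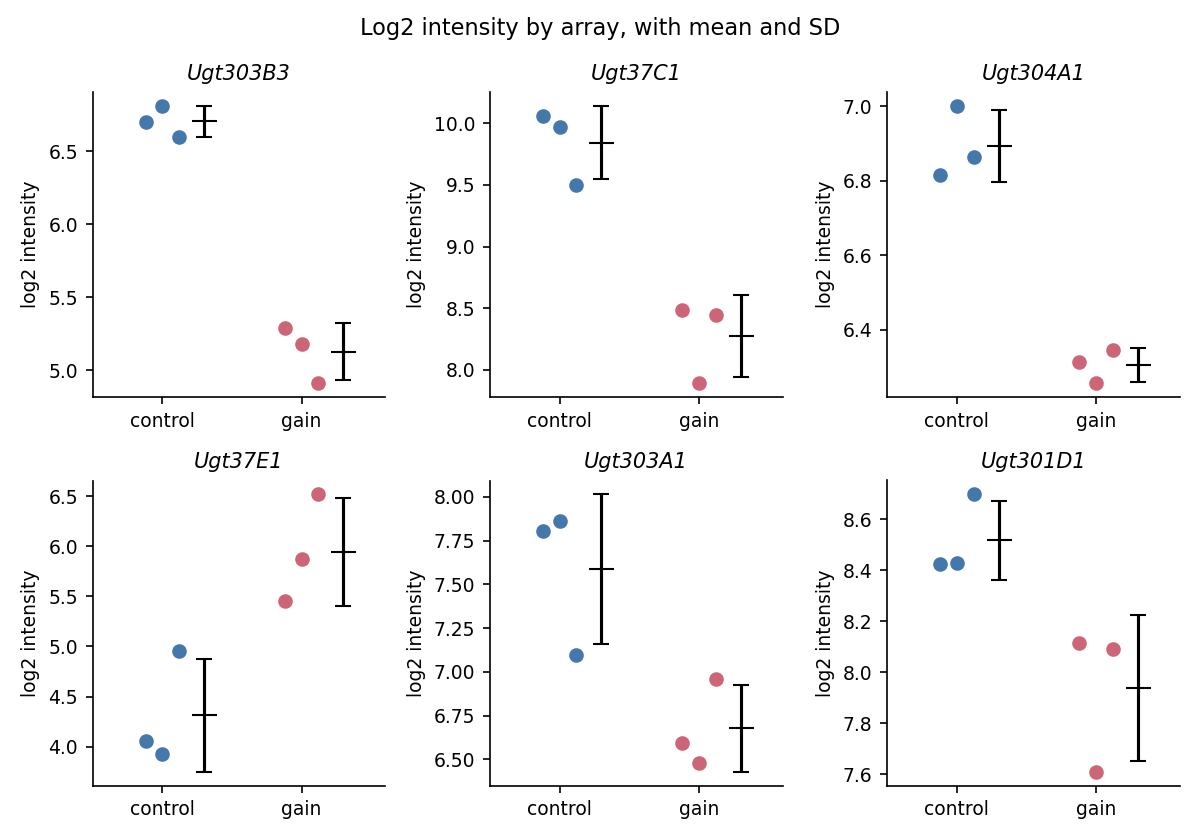
Log2 intensity (vertical axis, a separate scale in each panel) on the 3 control and 3 gain arrays for 6 genes, with the mean and SD of each group beside its points. Ugt303B3, Ugt37C1 and Ugt304A1 were called lower, Ugt37E1, Ugt303A1 and Ugt301D1 did not pass, and in all 6 panels the groups do not overlap.

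The member with the largest positive difference was Ugt37E1. It lay at 4.05, 3.93 and 4.96 in control, with control 2 below the floor, and at 5.45, 5.87 and 6.52 in gain. Every gain array lay above every control array, but both groups were widely spread, and control 3 stood well above the other controls. The log2 difference was 1.63 ± 0.36 (SE, n = 3 per group), or 1.61 with control 2 held at the floor, and did not pass (limma adjusted p = 0.0644). It passed in 6 of the 18 other settings that tested it, among them without control 3 (adjusted p = 0.0291) and under each of 4 other scalings of the arrays (adjusted p from 0.0299 to 0.0439), and the adjusted p ran from 0.0219 to 0.234 over the 18. The difference was positive in all 18, from 1.11 to 1.99.

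Ugt303A1, of the same family as Ugt303B3, lay at 7.80, 7.86 and 7.10 in control and 6.60, 6.48 and 6.96 in gain. Control 3 and gain 3 came within 0.14 of each other, and the other arrays were well apart. The log2 difference of -0.91 ± 0.24 (SE, n = 3 per group) did not pass (limma adjusted p = 0.0984). Without control 3 it was -1.16 and passed (adjusted p = 0.0244), as it did without both control 3 and gain 2 (adjusted p = 0.0322), over a range of 0.0244 to 0.313 in 19 settings.

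Ugt301D1 lay at 8.43, 8.43 and 8.70 in control and 8.12, 7.61 and 8.09 in gain, with no overlap and gain 2 lowest. Its difference of -0.58 ± 0.17 (SE, n = 3 per group, limma adjusted p = 0.127) was as large as that of Ugt304A1, with a wider spread, and did not pass in any of 19 other settings (adjusted p from 0.0625 to 0.307).

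The other 15 tested genes had differences between -0.42 and 0.48, with limma adjusted p-values from 0.289 to 0.941. None of their 95% intervals reached below -1.14 or above 1.52 on the log2 scale. Several of these intervals are wide, so a change of the size seen in Ugt304A1 lies within them. Ugt37B1 (-0.42), Ugt49C1 (-0.37) and Ugt316A1 (-0.23) had groups that did not overlap, by gaps of 0.041, 0.0022 and 0.038, and are the remaining members of the 8 with every gain array lower. Ugt35C1, formerly Ugt86Dd, a gene linked to nicotine resistance in fly larvae, lay at 6.42, 6.40 and 5.02 in control and 6.03, 6.27 and 6.97 in gain. Control 3 was the lowest of its 6 values, and the difference of 0.48 ± 0.43 (SE, n = 3 per group) carried the largest error of the family. Ugt36A1, the gene once called Dorothy and used as a marker of lymph gland and pericardial cells, lay at 6.33, 6.45 and 6.33 in control and 6.41, 5.598 and 6.46 in gain, with gain 2 the only low array; its difference was -0.21, and 0.066 without that array. Ugt35A1, with values from 11.55 to 12.03 on all 6 arrays, and Ugt305A1, from 9.43 to 9.85, had differences of -0.04 and 0.03.

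**Figure D3:**
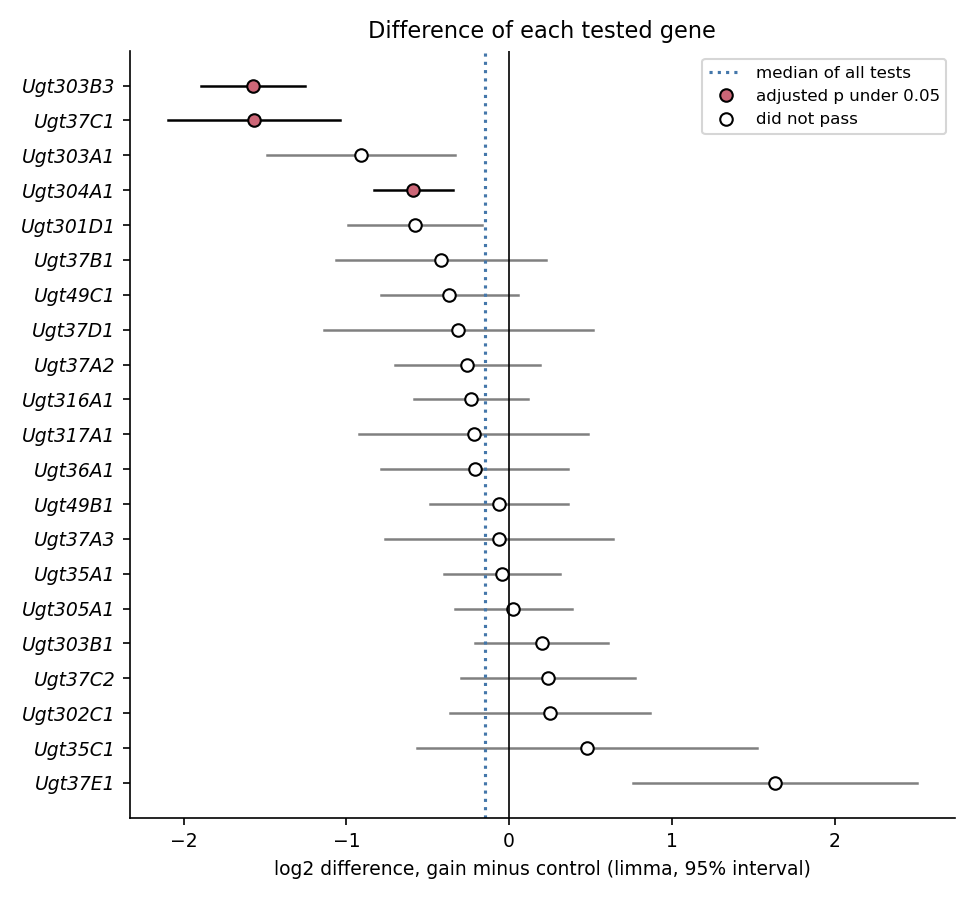
Log2 difference, gain minus control, of the 21 tested genes (points) with its 95% interval from limma (lines), with 0 as a solid line and the median of all tests, -0.15, as a dotted one. Filled points mark the 3 genes with an adjusted p under 0.05, and Ugt37E1 has the largest positive difference, 1.63.

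Families 37, 303 and 35 each held tested members with differences of either sign. Family 37, the largest with 8 genes on the array, had 7 tested, of which Ugt37C1 fell. Its differences ran from -1.57 for Ugt37C1 to 1.63 for Ugt37E1, with Ugt37C2 at 0.24, Ugt37A3 at -0.06, Ugt37A2 at -0.26 and Ugt37D1 at -0.31. On control 3, Ugt37D1 stood at 13.76, against 12.89 and 12.37 on the other controls. Family 303 had 3 of 4 genes tested, with Ugt303B3 lower, Ugt303A1 at -0.91 and Ugt303B1 at 0.20 without passing. In family 35, 2 of 6 genes were tested and neither passed, and in family 49, 2 of 3, with Ugt49B1 at -0.06 and Ugt49C1 at -0.37. Family 302 had Ugt302C1 alone tested, of 3 genes, at 0.25; it passed in 1 of 19 settings, without control 3 and gain 2 (adjusted p = 0.0412). Ugt317A1, the only gene of its family, had a difference of -0.22 and control values spread from 8.40 to 9.49.

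Of the 35 genes 23 lie in 6 groups of neighbours with at most 2 other protein-coding genes between them, by the gene order of a reference table. The called genes did not stand beside each other. Ugt303B3 lies next to Ugt303B1, which lay at 5.76, 5.78 and 5.59 in control and 6.25, 5.80 and 5.68 in gain. On the other side of Ugt303B3 lies CG10175, not a member, which was also lower, at -1.70 (limma adjusted p = 0.0418). That call held in 9 of 19 other settings. The log2 intensity of Ugt303B3 minus that of Ugt303B1 was 0.99 ± 0.045 in control and -0.78 ± 0.18 in gain (SD, n = 3), and the groups did not overlap (exact permutation test, two-sided p = 0.1, the smallest that 3 against 3 arrays allow). Ugt37E1 lies between Ugt37C2 and Ugt37D1. Ugt37E1 minus Ugt37D1 was -8.69 ± 0.22 in control and -6.75 ± 0.32 in gain (SD, n = 3), again without overlap (exact permutation test, two-sided p = 0.1). The largest group holds 10 genes, from Ugt35C1 to Ugt303A1, of which 5 were tested. At the far end of it Ugt304A1 and Ugt303A1 are neighbours, and they had differences of -0.59 and -0.91. Next to them Ugt35A1 had -0.04, and Ugt302C1 and Ugt35C1 at the other end had 0.25 and 0.48. Ugt303B3 and Ugt37E1 had groups that did not overlap on their own, before either was set against a neighbour. In all, 9 pairs of tested neighbours were compared, and the groups of 5 pairs did not overlap. The same count over other pairs of genes was not made, so there is no share to read the 5 of 9 against. No pair could pass (adjusted p of 0.18 or more over the 9 pairs by the exact permutation test).

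**Figure D4:**
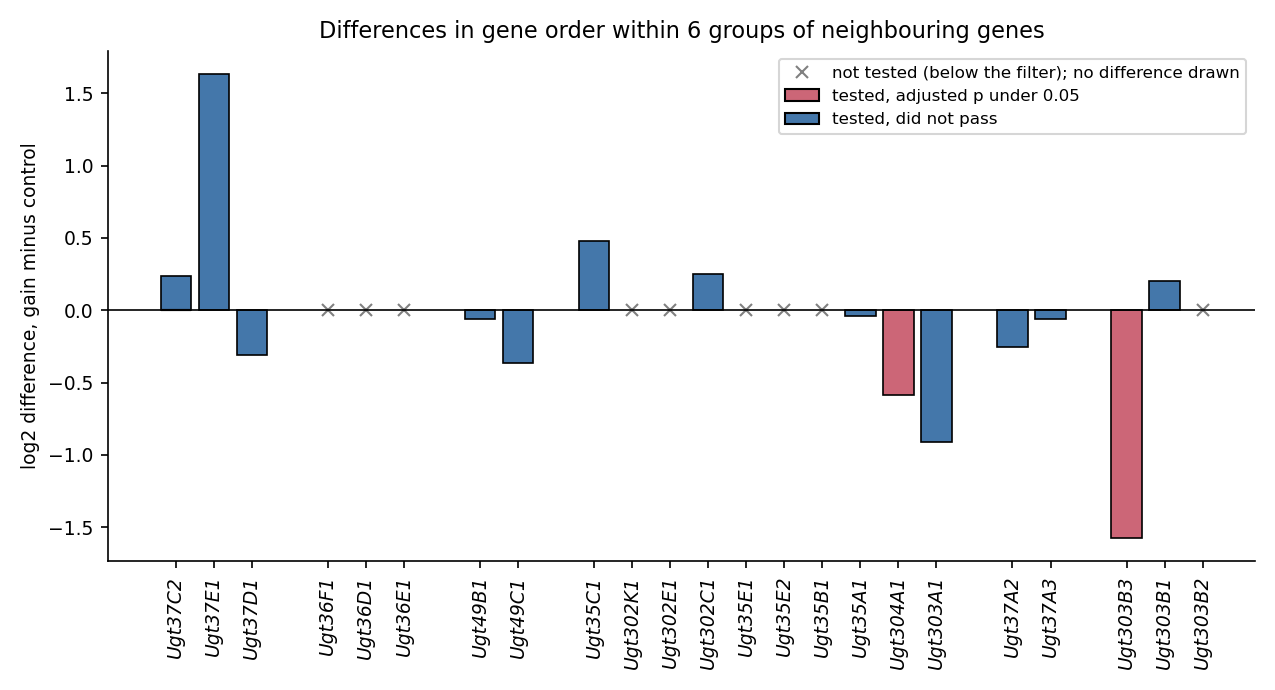
Log2 difference, gain minus control (vertical axis), of 23 genes in their order within 6 groups of neighbouring genes (horizontal axis, gaps between groups; not to genomic scale). Bars are tested genes, red for an adjusted p under 0.05, and crosses are genes below the filter; Ugt303B3 stands at -1.58 beside Ugt303B1 at 0.20.

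On gain 2 and gain 3 most members shifted together, in the direction in which the median of all tests also shifted. On gain 2, 19 of the 21 tested genes were lower than on gain 1 and gain 3 together, with a median of -0.27 beside -0.29 for all tests. On gain 3, 19 lay above, with a median of 0.34 beside 0.18. On control 3 the 21 genes were split, 9 above and 12 below the other controls. For 13 of them it was the control farthest from the other 2, and controls 1 and 2 were the most alike of all pairs. The same counts over all tests were not made. Without gain 2 the median difference of the family was -0.05, equal to that of all tests at this rounding. The calls over all tests were 277 lower and 36 higher, a share of 11.5% higher. Median centring of the arrays gave 252 and 201, 44.4% higher, quantile normalization 282 and 171, 37.7% higher, and median difference centring, which removes each array's median shift, 349 and 128, 26.8% higher. Under these 3 scalings the median of all tests was 0.10, 0.04 and -0.0009 and that of the family 0.03, 0.03 and -0.07. Relative to all tests the family lay at -0.07 in the deposited values, which centring cannot alter because it moves all genes of an array alike, and at -0.0028 after quantile normalization. The calls of Ugt303B3 and Ugt37C1 held under all 3, with Ugt37E1 added as higher and Ugt304A1 lost in each. Centring over all probe sets, added after the data were seen, moved the medians and the share the other way. It gave 291 lower and 33 higher, 10.2% higher, with a median of -0.24 for all tests and -0.31 for the family. The direction of the shift thus depended on the probe sets used for scaling.

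**Figure D5:**
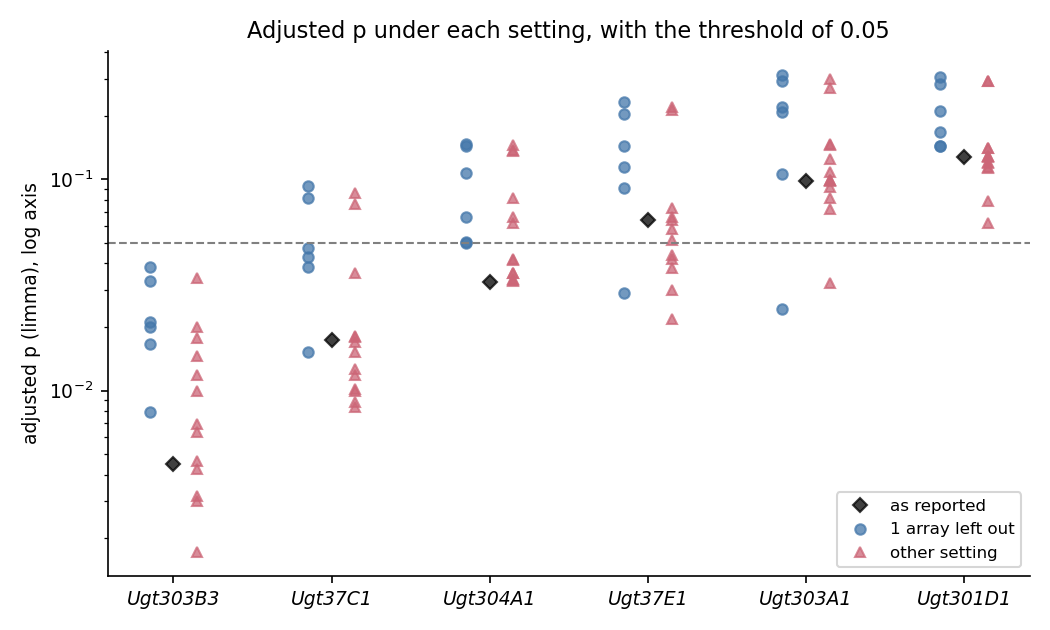
Adjusted p from limma (vertical axis, log scale) of 6 genes as reported (diamond), with 1 array left out (circles) and under the other settings (triangles), with 0.05 as a dashed line. All points of Ugt303B3 lie below the line, those of Ugt301D1 above it, and those of the other 4 genes on both sides.

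Other genes of sugar conjugation were read from lists of the enzymes that make and carry UDP-sugars, other users of UDP-glucose, enzymes that split sugar conjugates and regulators of the xenobiotic response. Of 27 listed genes 24 had a probe set of their own and 20 were tested. Efr fell, none rose and 19 did not pass, beside 3.47% and 0.451% called over all tests, and 4 had an unadjusted p under 0.05, beside 21.1% of all tests. Efr encodes a nucleotide sugar transporter of the endoplasmic reticulum. Its values were 11.03, 11.03 and 11.53 in control and 9.79, 9.26 and 9.77 in gain. The groups lay well apart, and the log2 difference was -1.59 ± 0.21 (SE, n = 3 per group, limma adjusted p = 0.0146). The call ended without control 1 (adjusted p = 0.0625) or control 2 (adjusted p = 0.056), with both averaged (adjusted p = 0.0563) and with no filter (adjusted p = 0.0669), over a range of 0.00627 to 0.0669.

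Every gain array lay below every control array for 6 of the 20 genes, beside 25.2% of all tests, and above for 1, Hex-C, beside 5.49%. The gene sgl, for the dehydrogenase that makes UDP-glucuronic acid, had a difference of -0.10, and Pgm1, for phosphoglucomutase, one of -0.20 (limma adjusted p = 0.563 and 0.413). UGP, for the enzyme that makes UDP-glucose, was not tested. The hexokinase gene Hex-C stood at 0.73 ± 0.15 (SE, n = 3 per group) and did not pass (limma adjusted p = 0.0512). It passed in 6 of 19 settings, without control 3 among them (adjusted p = 0.0476), over a range of 0.0152 to 0.165. The gene mmy, for the enzyme that makes UDP-N-acetylglucosamine, had -0.50 (adjusted p = 0.107). Among genes for conjugate-splitting enzymes CG9701, of the beta-glucosidase family, had -1.28 ± 0.27 (SE, n = 3 per group) and did not pass (limma adjusted p = 0.0544). It passed in 6 of 19 settings, without control 3 among them (adjusted p = 0.0196), over a range of 0.0196 to 0.188. The regulators cnc, maf-S, tgo and Keap1 had differences of 0.04, 0.03, -0.27 and -0.51, none past the threshold (limma adjusted p from 0.416 to 0.899). For Keap1 and tgo gain 2 was the only low array. Keap1 lay at 6.72, 5.64 and 6.92 in gain 1 to 3, and tgo at 8.30, 7.59 and 8.28.

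Markers of the Malpighian tubules, midgut and fat body were read because these tissues are known to transcribe many genes of the family. Of 17 tested markers 3 were lower and none higher, beside 3.47% and 0.451% of all tests, and 14 had a difference below 0, beside 75% of all tests. Every gain array lay below every control array for 9 of the 17, beside 25.2% of all tests, and above for none, beside 5.49%. Of 7 tested Malpighian tubule markers of 9 listed, NKCC, an ion cotransporter gene, was lower at -1.30 (limma adjusted p = 0.00868), 6 had a negative difference and the median was -0.53. Their summed intensity was 9668 to 10887 in control and 6764 to 8300.2 in gain. Of 6 tested midgut markers of 12 listed, GATAe, for a transcription factor of the gut, was lower at -1.29 (limma adjusted p = 0.0063), Mal-A2, a maltase gene, was lower at -0.66 (adjusted p = 0.0345), and the summed intensity was 60376 to 62040 in control and 51400 to 57635 in gain. Of 7 fat body markers 4 were tested and none passed, with a median of -0.02 and sums of 49111 to 60116 in control and 43098 to 46095 in gain. Such sums add probe sets whose levels are not comparable, and rest mostly on the brightest. In the fat body apolpp, at 15.14 to 15.41, had a difference of -0.08, and Lsp2 ran from 11.6 to 14.5 among controls. In the midgut Jon65Aiii, at 14.96 to 15.18, had -0.05. The median difference of all tests was -0.15. Markers of other tissues were also listed, and 2 of muscle, 1 of neurons and 4 of haemocytes were tested. None of them passed, with median differences of -0.09, -0.52 and -0.06. Every gain array lay below every control array for 1 of the haemocyte markers and for none of the muscle or neuron markers. The calls of GATAe, NKCC and Mal-A2 were lost without control 1 (limma adjusted p = 0.0506, 0.0599 and 0.172). That of NKCC was also lost without control 2 (adjusted p = 0.0529) and with controls 1 and 2 averaged (adjusted p = 0.0558). That of Mal-A2 was kept in 7 of 19 settings. The part of these tissues in the differences of the UDP-glycosyltransferase genes was not tested.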

How the data were processed

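RNA of whole larvae was measured on 6 arrays, 3 control and 3 gain, with groups from the labels. The authors deposited linear-scale intensities, for which the submitters' processing notes name GCRMA; version, scanner and build are not named there. The small number of arrays limits the precision.

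Gene names came from the platform annotation, and all 35 members matched a reference gene table by gene ID. That table served for symbols and gene order only. Log2 values were taken with no pseudocount. Probe sets at a log2 of 4 or more on at least 3 arrays were kept, without array controls, with the brightest probe set of a gene, which left 7974 tests. The groups' test was limma 3.58.1 under R 4.3.3 (eBayes, no covariate), with Benjamini-Hochberg adjustment over all tests, after a check on simulated data. Neighbouring genes were compared with exact permutation tests in SciPy 1.17.1. Tables and figures were made with Python 3.11.15, pandas 2.3.3, NumPy 2.4.6 and Matplotlib 3.10.9.

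The members, lists and settings were chosen with earlier results of these data known. All 35 members are accounted for, and values on each array are given for those called, those with groups apart by a difference of 0.5 or more, and those with a difference of 1 or more in size. Of pathway genes the rule names those called and the 2 with the largest differences; the other pathway genes, the 3 called tissue markers and CG10175 were named after their values were seen. The settings were a floor of 6 or none, a pseudocount of 16, median centring, median difference centring, quantile normalization, an intensity trend, all probe sets of a gene averaged or tested singly, a block for the replicate number, controls 1 and 2 averaged, control 3 and gain 2 left out, and each array left out. Centring over all probe sets was added after the data were seen.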

Additional observations from a re-analysis of the deposited data

How the results depend on the processing

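Calls over all tests, 313 as reported, numbered 102 with no filter, 477 with median difference centring, 53 with controls 1 and 2 averaged, 760 without control 3 and gain 2, and 39 to 425 with 1 array left out. Members called lower, 3 as reported, numbered 2 with no filter, with quantile normalization, with each of the 3 centrings and with the replicate block. They numbered 1 with controls 1 and 2 averaged, 4 without control 3 and gain 2, and 1 to 3 with 1 array left out. Members called higher, none as reported, numbered 1, Ugt37E1, with quantile normalization, with each of the 3 centrings and with the replicate block, 1, Ugt302C1, without control 3 and gain 2, and 0 to 1 with 1 array left out. The family's median difference, -0.22 as reported, was 0.03 with median centring, 0.03 with quantile normalization, -0.071 with median difference centring, -0.062 over 35 genes with no filter, -0.071 without control 3 and gain 2, and -0.32 to -0.054 with 1 array left out. With centring over all probe sets it was -0.31. Pathway calls, 1 as reported, numbered 0 with no filter and with controls 1 and 2 averaged, 3 with a floor of 6 and with median difference centring, 2 with an intensity trend, a pseudocount of 16, median centring, centring over all probe sets, quantile normalization and without control 3 and gain 2, and 0 to 3 with 1 array left out. Fewer arrays or fewer genes tested enter some of these counts by construction; for the rest the cause was not tested.

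Signs changed for members without a call. Centring adds 1 amount to the difference of every gene, so members near 0 change sign by construction. Median centring turned Ugt316A1 to 0.013, Ugt317A1 to 0.029, Ugt35A1 to 0.21, Ugt36A1 to 0.035, Ugt37A3 to 0.19 and Ugt49B1 to 0.18. Median difference centring turned Ugt35A1 to 0.10, Ugt37A3 to 0.085 and Ugt49B1 to 0.084, and centring over all probe sets turned Ugt305A1 to -0.067. Quantile normalization turned Ugt317A1 to 0.034, Ugt35A1 to 0.11, Ugt36A1 to 0.067, Ugt37A3 to 0.049 and Ugt49B1 to 0.13. With controls 1 and 2 averaged Ugt35A1 was at 0.032, and without control 3 and gain 2 Ugt317A1 was at 0.21, Ugt36A1 at 0.047, Ugt37A3 at 0.31 and Ugt37D1 at 0.067. With 1 array left out Ugt305A1 ran from -0.052 to 0.16, Ugt35A1 from -0.19 to 0.046, Ugt317A1 from -0.50 to 0.048, Ugt36A1 from -0.37 to 0.066, Ugt37A3 from -0.29 to 0.22, Ugt37D1 from -0.63 to 0.063 and Ugt49B1 from -0.23 to 0.025.

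Whether the replicate numbers of the groups pair the arrays could not be settled. Deviations from the group means correlated at 0.21, 0.026 and 0.37 for arrays with the same number, and control 2 correlated best with gain 1. With the replicate block 258 tests were called, Ugt304A1 lost its call (limma adjusted p = 0.0813) and Ugt37E1 gained one (adjusted p = 0.0219). Genes near the floor of 4, Ugt37E1 among them, rest on signal close to background.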

Other observations

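The protein-coding neighbours of the called genes were read to see what lay beside them. CG10175, on the side of Ugt303B3 away from Ugt303B1, had a log2 mean of 6.33 in control and 4.63 in gain, a difference of -1.70 ± 0.32 (SE, n = 3 per group, limma adjusted p = 0.0418). Its call held in 9 of 19 other settings, with adjusted p-values from 0.00829 to 0.151, and among fits with 1 array left out in 2 of 6, those without control 3 and without gain 2. Beside Ugt37C1, IntS8 did not pass, at 0.22 (adjusted p = 0.333), and CG34460, on its other side, lay below the floor on all arrays, with a highest log2 value of 2.36. CG18577, next to Ugt303A1, had a difference of 0.07 (adjusted p = 0.768). These genes were looked up after the values of the members were seen.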
